A study of Mus musculus with 8 samples.

Results

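This section describes the genes that encode the proteins of the cytosolic ribosome in mouse hearts 1 day after a myocardial infarction (MI), in animals with and without the muscle ubiquitin ligase MAFbx. Members were taken by their symbols: Rpl or Rps followed by a number with its usual suffixes, together with Rplp0, Rplp1, Rplp2 and Rpsa, without the Rps6k kinases and the pseudogenes named -ps. Each gene was represented by the probe with the highest mean level over the 8 arrays. This gave 61 genes of 19938 in all, 38 of the large (60S) subunit and 23 of the small (40S) subunit. The gene table of RefSeq (mouse assembly GRCm38.p6) holds 89 genes with such symbols. Of the other 28, 16 had only probes that name several genes, among them Rpl3, Rpl11, Rpl13a, Rpl39 and Rps27, and 12 had no probe in the annotation used here, among them Rpl32. RefSeq lists Rps4l, a member, as a transcribed pseudogene.

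RNA of each heart sample was read on 1 Affymetrix Mouse Gene ST array, with 2 arrays in each of 4 groups. Wild-type hearts (WT) and hearts of MAFbx knockout mice (KO, labelled MAFbxKO; MAFbx, also called atrogin-1, is the product of Fbxo32) were taken after a sham operation or after permanent ligation of the left coronary artery. The design text gives RNA extraction at 1 day after surgery, and the sample titles repeat the day for the MI hearts alone. The titles of the WT samples carry the letters LM, which the labels do not explain, and strain, sex, age, the part of the heart taken and how the knockout was made are not stated in the sources used here. Since no label says that 2 arrays of a group are 2 animals, a p-value here reflects only how far these samples differ from each other, and that spread could be technical.

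The cytosolic ribosome translates nuclear-encoded mRNA and is built in the nucleolus and nucleus from ribosomal RNA and the proteins of both subunits. RNA polymerase I makes the large ribosomal RNA precursor, processing and assembly factors trim and fold it, and the ribosomal proteins join in a set order before the subunits reach the cytoplasm. The mRNAs of ribosomal proteins belong to the TOP class: they begin with a C followed by a run of pyrimidines at the transcription start, and their translation is switched with nutrient and growth signals through mTORC1 and LARP1. Their genes are transcribed in nearly every cell and more so in growing or activated cells, and they are therefore often used as reference genes. Free ribosomal proteins are mostly degraded, and some, such as RPL5 and RPL11 with 5S ribosomal RNA, bind MDM2 and stabilise p53 when assembly fails.

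Sequences at the start of 6 members are shown to give the letters counted in the next paragraph. The following stretches run from 60 bases before to 20 bases after the start of the gene on the coding strand, 5′ to 3′, from RefSeq (GRCm38.p6). The first 4 are members that rose after MI and hold a pyrimidine tract, and were chosen for holding one. Rpl3l and Rpl41 follow as the members that fell. Capitals mark a pyrimidine tract word (the word CTTTTC, its variant written CTTTCC, or the related word CTCTTT) in the first 4 and the ETS-type word CCGGAAG in Rpl41.
Rps12, chr10:23787190-23787269, minus strand: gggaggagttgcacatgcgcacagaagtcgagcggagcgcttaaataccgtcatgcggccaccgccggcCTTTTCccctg
Rpl5, chr5:107900468-107900547, plus strand: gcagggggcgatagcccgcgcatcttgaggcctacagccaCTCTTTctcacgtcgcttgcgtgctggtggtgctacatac
Rps9, chr7:3703981-3704060, plus strand: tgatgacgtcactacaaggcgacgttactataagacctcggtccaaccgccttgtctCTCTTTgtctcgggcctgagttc
Rpl12, chr2:32961652-32961731, plus strand: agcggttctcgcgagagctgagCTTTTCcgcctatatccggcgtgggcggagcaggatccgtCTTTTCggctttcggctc
Rpl3l, chr17:24727766-24727845, plus strand: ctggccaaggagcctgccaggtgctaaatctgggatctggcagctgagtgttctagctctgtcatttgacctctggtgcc
Rpl41, chr10:128549149-128549228, minus strand: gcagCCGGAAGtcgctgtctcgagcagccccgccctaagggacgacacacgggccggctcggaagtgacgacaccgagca

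RefSeq start windows were matched for 49 of the 61 members and for 27025 genes in all. One of the 3 tract words lay on the coding strand within 50 bases of a start in 24 of the 49 members (49.0%), against 12.6% of all genes, 13.2% of 68 genes for mitochondrial ribosomal proteins and 8.51% of 47 genes for ribosomal RNA processing and assembly. The ETS-type word CCGGAAG, searched on both strands from 250 bases before to 50 after the start, was in 38.8% of members against 9.93% of all genes, and in 36.8% and 34.0% of the mitochondrial and assembly genes. In the same window the YY1 word AAGATGGC, on both strands, was in 6.12% of members against 3.19% of all genes, and the E-box CACGTG, which reads the same on both strands, in 10.2% against 8.09%. The assembly genes held that E-box in 27.7%. TATAAA was in 0 of the 49 members within the 50 bases before the start, against 3.15% of all genes. Words of the tract can overlap each other, and a gene was counted once per motif. These matches describe letters only, the words and windows were chosen after the members' start sequences had been viewed, and a shared word was not accompanied by a larger response here: the median MI response averaged over genotypes was 0.55 (log2) in the 24 members with a tract and 0.61 in the 25 without, and 0.60 and 0.59 with and without the ETS-type word.

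The KO arrays matched their label in Fbxo32, whose log2 level lay between 8.21 and 8.79 in the WT arrays and between 4.68 and 5.46 in the KO arrays. Array medians were 5.75 to 5.81 over genes and, more widely spread, 5.004 to 5.253 over all probes. Arrays of one group correlated across all genes at 0.991 to 0.996 and across the 61 members at 0.994 to 0.998. Infarction separated the arrays on the first principal component of all genes (73.9% of variance). On the second component (8.56%), KO sham replicate 1 at -21.2 and WT MI replicate 2 at -20.2 stood apart from their partners at 15.3 and 0.6, so the leading counts are given with and without that pair. Cardiomyocyte marker genes, 12 in number and including Myh6, Tnnt2 and Ryr2, had mean log2 levels of 13.05 to 13.33 over the 8 arrays, so the markers of the labelled tissue were present in each.

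Ribosomal protein genes rose after infarction in hearts of both genotypes, with a higher median in the small subunit than in the large. In WT hearts 40 of the 61 rose (65.6%; of all genes tested 12.3% rose) and 1, Rpl3l, fell (of all genes 15.8% fell), by limma with a Benjamini-Hochberg adjusted p under 0.05. In KO hearts 39 rose (63.9%; of all genes 10.5%) and 0 fell (of all genes 10.3%), while 43 of the 61 (70.5%; of all genes 31.9%) had an unadjusted p under 0.05 in either direction. The median log2 fold change over the 61 was 0.64, a 1.56-fold rise, in each genotype, with a range of -0.57 to 1.47 in WT and -0.35 to 1.56 in KO and a median standard error of 0.13. The median over all genes was 0.04 in WT and 0.01 in KO. Averaged over genotypes, 45 members rose (73.8%; of all genes 17.2%) and 2 fell (of all genes 19.4%), with a median of 0.61. Without KO sham replicate 1 and WT MI replicate 2 the numbers that rose were 40 in WT, 41 in KO and 47 on average.

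**Figure D1:**
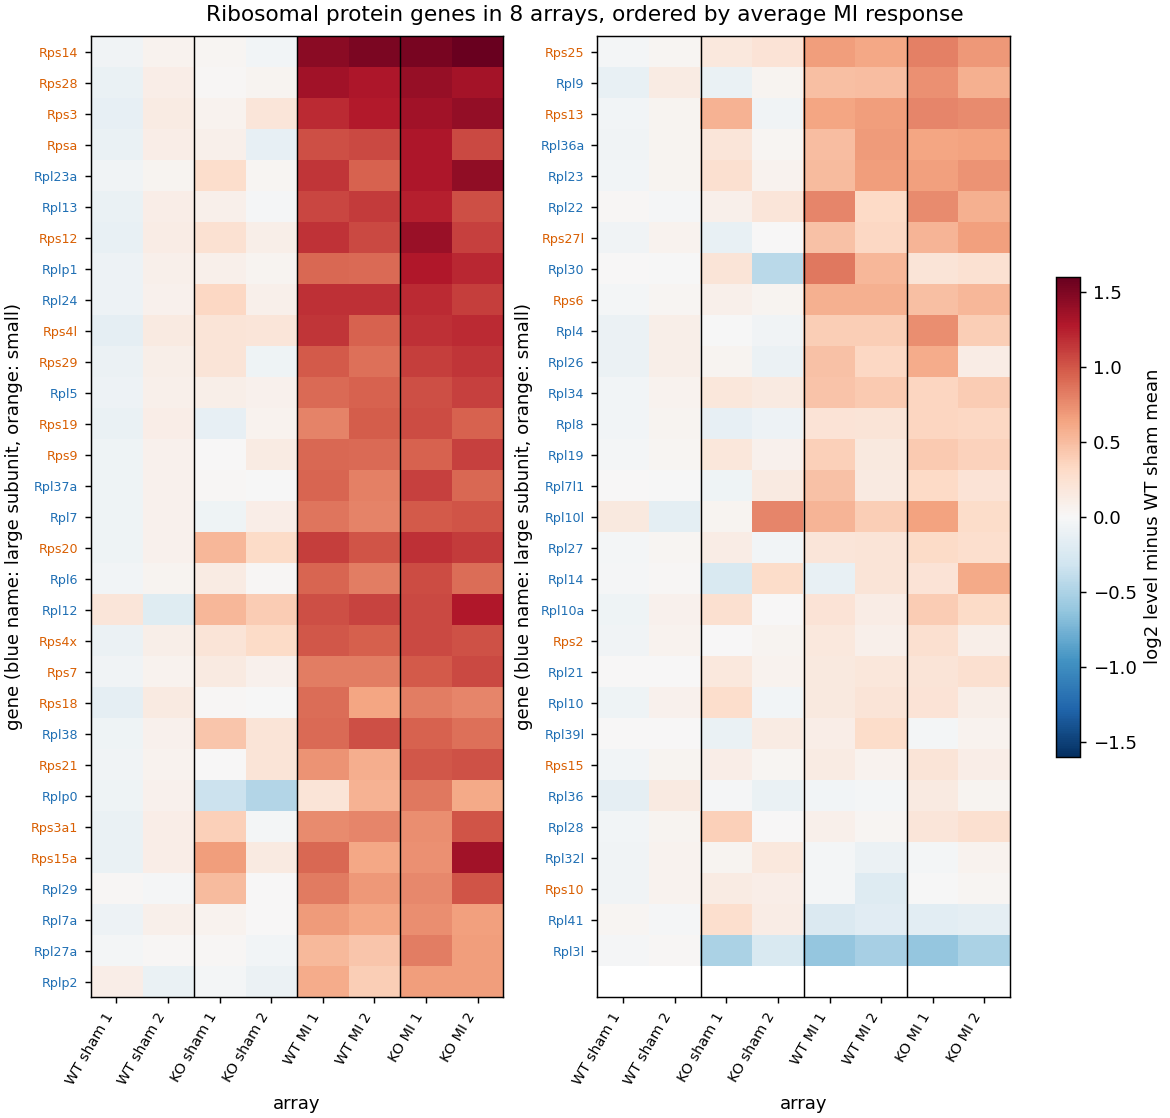
Log2 level of each of the 61 ribosomal protein genes in each of the 8 arrays, minus the gene's mean in the 2 WT sham arrays, with genes ordered by their average MI response; columns are arrays and red is higher than WT sham. The 4 MI arrays are red for most genes, Rps14 at the top of the left panel rises most, and Rpl41 and Rpl3l at the foot of the right panel are lower after MI.

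The individual arrays showed the same split. Relative to the WT sham mean, the average over the 61 members was -0.05 and 0.05 (log2) in WT sham, 0.12 and 0.05 in KO sham, 0.61 and 0.57 in WT MI, and 0.71 and 0.68 in KO MI. All 4 MI arrays lay above all 4 sham arrays for 44 of the 61 members (72.1%; of all genes 17.0%), and below them for 1, Rpl41 (of all genes 18.1%). Within WT hearts both MI arrays exceeded both sham arrays for 54 members (88.5%; of all genes 35.0%), and within KO hearts for 50 (82.0%; of all genes 28.1%).

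Markers of neutrophils and of monocytes and macrophages rose after MI, while those of lymphocytes and erythrocytes were mostly not called in either genotype. The 10 neutrophil genes, among them S100a8, Lcn2 and Cxcr2, had a mean log2 level of 3.90 to 3.99 in WT sham, 3.92 to 4.06 in KO sham, 7.55 to 8.37 in WT MI and 6.88 to 7.08 in KO MI, and 9 of them rose in WT and 7 in KO. The 10 monocyte and macrophage genes went from 6.30 to 6.35 in WT sham and 6.23 to 6.56 in KO sham to 7.98 to 8.50 in WT MI and 8.11 to 8.21 in KO MI, with 7 of 10 rising in each genotype. The 12 cardiomyocyte genes went from 13.24 to 13.33 in sham down to 13.05 to 13.17 in MI, with 4 falling in WT and 2 in KO, and the 9 fibroblast genes were between 8.87 and 9.14 in sham (5 fell in WT, 1 rose and 1 fell in KO), 8.42 and 8.53 in WT MI and 8.87 and 8.95 in KO MI. Of 8 endothelial genes 1 rose and 2 fell in WT and 0 rose and 3 fell in KO, and of 6 smooth muscle genes 4 fell in WT and 2 in KO. Of 9 lymphocyte genes 1 rose in WT (11.1%) and 0 in KO, and the 2 erythrocyte genes measured passed in neither genotype. Among 10 skeletal muscle genes 1 rose in each genotype (10%) and 1 fell in WT (10%), and of 7 liver genes 4 fell in WT and 1 in KO. Mean levels of the liver genes were 6.90 to 7.81 in WT sham, 5.48 to 7.51 in KO sham, 5.34 to 5.59 in WT MI and 5.12 to 5.39 in KO MI. Sham arrays thus differed from each other in these genes. Alb fell 64.4-fold in WT and 16.6-fold in KO. The source of the liver transcripts was not tested. For scale, 12.3% of all genes rose and 15.8% fell in WT, and 10.5% rose and 10.3% fell in KO. The lymphocyte and skeletal muscle rises in WT were near that share. The part of these shifts in the ribosomal protein rise was not tested. In bulk tissue, more cells of a type and more RNA per cell cannot be told apart.

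The small subunit accounted for the largest responses. Of its 23 members 20 rose in WT (87%, of all genes 12.3%) and 18 in KO (78.3%, of all genes 10.5%). The medians were 0.83 and 0.79. Of the 23 changes 22 were above 0 in each genotype, against 10910 of all 19938 genes in WT and 10275 in KO. Of the 38 large-subunit members 20 rose in WT (52.6%) and 21 in KO (55.3%), with medians of 0.47 and 0.53. The difference between the subunits was not tested.

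Rps14, a protein of the platform of the small subunit whose loss is known from the 5q- syndrome of the blood, had log2 levels of 9.46 and 9.58 in WT sham, 9.55 and 9.47 in KO sham, 10.96 and 11.03 in WT MI and 11.04 and 11.10 in KO MI. Its 4 sham arrays were close together and far below every MI array. It rose by 1.47 (SE 0.12, 2.78-fold, limma adjusted p = 2.64e-05) in WT and 1.56 (SE 0.12, 2.95-fold, adjusted p = 2.93e-05) in KO. Rps28, which sits near the channel through which mRNA leaves, had 9.16 and 9.38 in WT sham, 9.29 and 9.31 in KO sham, 10.62 and 10.56 in WT MI and 10.66 and 10.60 in KO MI. Its groups split by surgery with no overlap, and its rises were 1.32 (2.5-fold) in WT and 1.33 (2.51-fold) in KO. Rps3, at the mRNA entry channel and also known for a role in DNA repair, had 8.86 and 9.13 in WT sham, 9.05 and 9.19 in KO sham, 10.19 and 10.26 in WT MI and 10.34 and 10.40 in KO MI. Both genotypes again showed high MI arrays and low sham arrays, with rises of 1.23 (2.34-fold) and 1.25 (2.38-fold). Rpsa, known also as a laminin receptor, had 9.53 and 9.74 in WT sham, 9.71 and 9.50 in KO sham, 10.66 and 10.69 in WT MI and 10.93 and 10.69 in KO MI, which is a 2.06-fold rise in WT and a 2.30-fold rise in KO.

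Other small-subunit members followed at a similar size. Rps12 rose 2.15-fold in WT and 2.10-fold in KO, Rps4x 1.97-fold and 1.73-fold, Rps29 1.91-fold and 2.09-fold, and Rps19, mutated in Diamond-Blackfan anaemia, 1.84-fold and 2.04-fold. Rps20 rose 2.08-fold in WT (1.06 log2, SE 0.13) and 1.66-fold in KO (0.73, SE 0.13). Its KO sham arrays, 11.23 and 11.00, were above the WT sham arrays, 10.63 and 10.77, and the MI arrays of both genotypes lay between 11.71 and 11.87. Rps18, a common reference gene, rose 1.69-fold in WT (0.76, SE 0.14, adjusted p = 0.00304) and 1.73-fold in KO (0.79, SE 0.14, adjusted p = 0.00362), where sham hearts gave 10.65 to 10.93 and MI hearts 11.42 to 11.68. Rps6, the substrate of the S6 kinases, stood at 12.56 to 12.68 in sham and 13.08 to 13.17 in MI and rose 1.49-fold in WT and 1.36-fold in KO; the KO call was lost without KO sham replicate 2 (adjusted p = 0.0515), KO MI replicate 1 (0.0842) or KO MI replicate 2 (0.123), and with the 2 compared groups alone (0.0658). The 3 small-subunit members with no call in either genotype were Rps2, Rps10 and Rps15, at 0.13, -0.12 and 0.09 in WT and 0.16, -0.10 and 0.09 in KO.

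The large-subunit members that rose most in WT were Rpl24, Rpl13, Rpl12 and Rpl23a. Rpl24, which forms a bridge to the small subunit, had 9.31 and 9.46 in WT sham, 9.72 and 9.47 in KO sham, 10.55 and 10.55 in WT MI and 10.58 and 10.49 in KO MI. All MI arrays were above all sham arrays, the KO sham arrays were just above the WT ones, and the rise was 2.24-fold in WT and 1.92-fold in KO. Rpl13 rose 2.13-fold and 2.16-fold, and Rpl23a, at the site where the new peptide leaves, 2.05-fold and 2.31-fold. Rpl12, of the base of the stalk, rose 2.08-fold in WT (1.05, SE 0.15) and 1.63-fold in KO (0.70, SE 0.15), on a probe of low signal whose WT sham arrays, 4.66 and 4.27, differed by more than those of any other member. Rpl5, which carries 5S ribosomal RNA, had 10.42 and 10.59 in WT sham, 10.60 and 10.57 in KO sham, 11.41 and 11.45 in WT MI and 11.54 and 11.60 in KO MI. It rose 1.9-fold in WT and 1.98-fold in KO, with no overlap between sham and MI arrays.

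The acidic stalk proteins Rplp0, Rplp1 and Rplp2 recruit elongation factors to the large subunit. Rplp1 had 11.46 and 11.62 in WT sham, 11.62 and 11.58 in KO sham, 12.46 and 12.45 in WT MI and 12.82 and 12.75 in KO MI, a 1.88-fold rise in WT (0.91, SE 0.12, adjusted p = 0.000417) and a 2.28-fold rise in KO (1.19, SE 0.12, adjusted p = 0.000162). Rplp0, also a common reference gene, had 11.55 and 11.70 in WT sham, 11.28 and 11.15 in KO sham, 11.83 and 12.18 in WT MI and 12.47 and 12.23 in KO MI. Its KO arrays were the lowest of all after sham and the highest of all after MI. The change was 0.38 in WT (SE 0.15, 1.30-fold, adjusted p = 0.0988), which did not pass the threshold, and 1.14 in KO (SE 0.15, 2.20-fold, adjusted p = 0.000857). The WT change passed without WT MI replicate 1 (0.55, adjusted p = 0.0436). Rplp2 rose 1.4-fold in WT and 1.66-fold in KO; its WT call did not hold on leaving out WT sham replicate 2 (0.38, adjusted p = 0.182), nor on leaving out WT MI replicate 1 (0.38, 0.107).

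**Figure D2:**
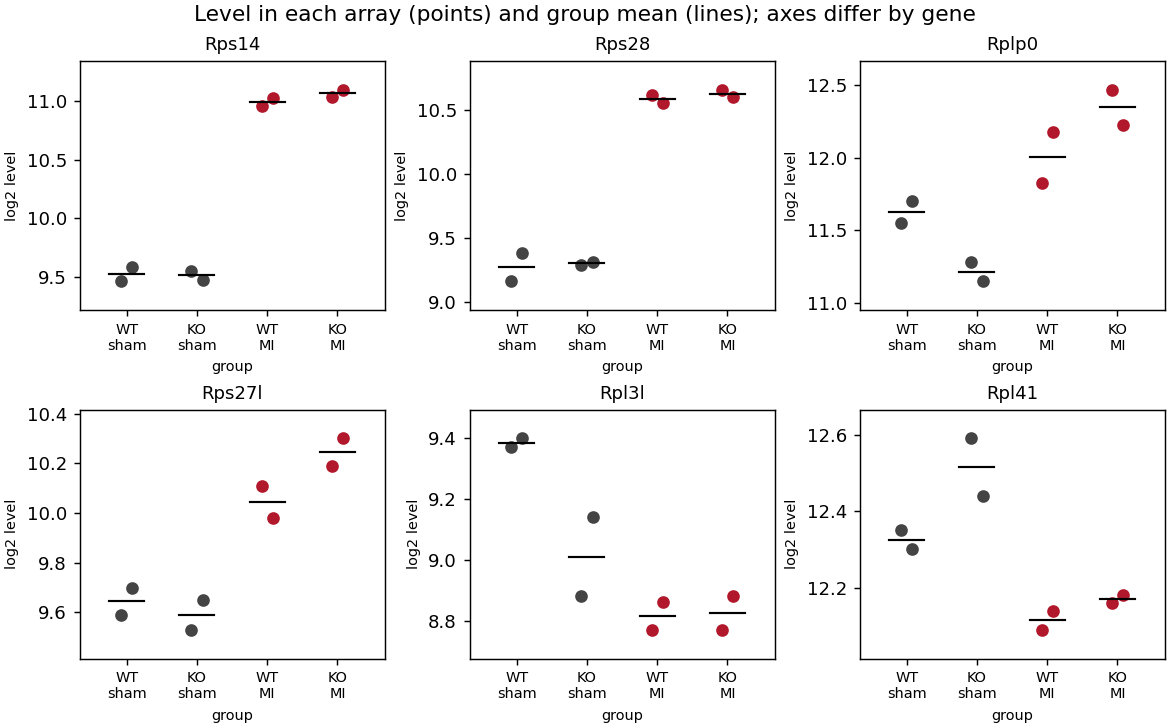
Log2 level of 6 ribosomal protein genes in each array (points) with group means (lines), 2 arrays per group, sham in grey and MI in red; the axes differ by gene and levels are not to be compared between genes. Rps14 and Rps28 split by surgery, Rplp0 has its lowest arrays in KO sham and its highest in KO MI, and Rpl3l is highest in the 2 WT sham arrays.

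Some ribosomal proteins have a second gene with a tissue-restricted or regulated form, and these paralogs did not move as one. Rpl3l, the form of Rpl3 made in heart and skeletal muscle, had log2 levels of 9.37 and 9.40 in WT sham, 8.88 and 9.14 in KO sham, 8.77 and 8.86 in WT MI and 8.77 and 8.88 in KO MI. The WT sham arrays stood above the other 6, and KO sham replicate 1 equalled the higher KO MI array to 2 decimals. Rpl3l fell by 0.57 on the log2 scale in WT (SE 0.13, adjusted p = 0.00977), and its change in KO was -0.19 (SE 0.13, adjusted p = 0.395). The difference of these responses, 0.38 (95% interval -0.03 to 0.80), had an adjusted p of 0.641. The WT call did not hold when either WT sham array was left out (adjusted p = 0.0586 without replicate 1 and 0.0682 without replicate 2), nor without WT MI replicate 1 (0.0501). Averaged over genotypes Rpl3l fell by 0.38 (adjusted p = 0.0102), and that call was kept in all 19 alternatives, with adjusted p between 0.00358 and 0.0436. Its parent Rpl3 had only probes that name several genes, so the pair was not compared.

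Rps27l, a p53 target related to Rps27, had 9.59 and 9.70 in WT sham, 9.53 and 9.65 in KO sham, 10.11 and 9.98 in WT MI and 10.19 and 10.30 in KO MI. It rose 1.32-fold in WT (0.40, SE 0.12, adjusted p = 0.0392) and 1.57-fold in KO (0.65, SE 0.12, adjusted p = 0.00498). The WT call was lost in 8 of 20 alternatives, including each of WT sham replicates 1 and 2, WT MI replicates 1 and 2 and KO MI replicates 1 and 2 left out (adjusted p = 0.225, 0.11, 0.147, 0.0669, 0.0597 and 0.0597). Rps4l, the transcribed pseudogene, rose 2.06-fold in WT and 1.98-fold in KO beside 1.97-fold and 1.73-fold for Rps4x; near-identical copies can share signal on these probes, so the pair may not be independent. Rpl7l1, a relative of Rpl7 that acts in ribosome assembly, changed by 0.30 in WT (adjusted p = 0.158) and 0.24 in KO (adjusted p = 0.318), where Rpl7 rose by 0.82 and 0.98. The testis forms Rpl10l and Rpl39l had signals of 4.68 to 5.61 and 2.68 to 3.09 and passed in neither genotype. Rpl39l was the 1 member removed by a filter on low mean level (4.59), and Rpl10l differed by 0.75 between the KO sham arrays, the widest gap between replicates of any member. Of the parents, Rpl10 passed in neither genotype (0.19 and 0.04), and Rpl22, Rpl36a and Rps3a1 rose in both, by 0.55 and 0.53, 0.59 and 0.53, and 0.76 and 0.71. Each of those 3 lost a call on leaving out 1 array: in WT without WT sham replicate 1, with adjusted p of 0.105, 0.0634 and 0.0664, and in KO without KO MI replicate 2, with 0.0962, 0.0869 and 0.119. Rpl22 also lost its WT call without WT sham replicate 2 (0.136) or WT MI replicate 1 (0.161), and its KO call without WT sham replicate 1 or 2 (0.0695 each), KO sham replicate 1 (0.134), KO sham replicate 2 (0.0759) or KO MI replicate 1 (0.221). Rpl36a lost its KO call without KO sham replicate 2 (0.0583) or KO MI replicate 1 (0.0798), and Rps3a1 without KO sham replicate 2 (0.0693).

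Rpl41, which encodes a very short protein at the interface of the subunits, was the other member that fell. Its levels were 12.35 and 12.30 in WT sham, 12.59 and 12.44 in KO sham, 12.09 and 12.14 in WT MI and 12.16 and 12.18 in KO MI, so all MI arrays were below all sham arrays. The change was -0.21 in WT (adjusted p = 0.229) and -0.35 in KO (adjusted p = 0.0683), and the averaged change of -0.28 (SE 0.08) had an adjusted p of 0.0269. That call was lost without WT sham replicate 1 (0.101), WT sham replicate 2 (0.0764), WT MI replicate 1 (0.0601), KO MI replicate 1 (0.0768) or KO MI replicate 2 (0.072), without KO sham replicate 1 and WT MI replicate 2 together (-0.25, 0.0566), and under cyclic loess scaling (-0.19, 0.123). There were 18 members that rose in neither genotype, and among them Rpl21, Rpl28, Rpl36 and Rps15 stayed between -0.03 and 0.17.

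Members with probes of very high signal had a smaller median change, but not each of them changed little. Of the members, 10 (16.4%) had a mean level above the 99th percentile of all genes (11.45), led by Rps6 at 12.88, Rpl21 at 12.57 and Rps2 at 12.41. Their median averaged response was 0.20, with 5 rising (50%), against 0.70 in the other 51, of which 40 rose (78.4%). Of all genes 17.2% rose on average. The responses of the 10 ran from -0.28 to 1.05, the highest in Rplp1. The split was chosen after the values were seen, the level is a probe's signal and not an abundance, and whether bright probes compress a change was not tested. Over all 61 members, mean level and averaged response had r = -0.02, given as a description.

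Genes with several probes allowed the rise to be read more than once on the same arrays. Among the 61 members 39 had more than 1 probe, 195 probes in all, and in each of the 39 every probe changed in one direction. The gap between the largest and smallest averaged response of a gene's probes had a median of 0.11 and was under 0.2 in 27 genes. It was widest in Rpsa, whose probes ran from 1.12 to 1.81, with the smallest value on the probe used here. The 14 probes of Rps12 gave 0.85 to 1.10, the 13 of Rpl23a 0.76 to 1.21, and the 3 of Rpl41, which hold equal values, -0.28 each. Some probes of Rps12, Rps28 and Rps6 also shared their level and response to the digits read. The number of probes can therefore exceed the number of separate readings. Probes of one gene share their RNA, and ribosomal protein genes have many processed pseudogenes of close sequence, so these are repeated readings and not replicates. The 16 genes with only probes that name several genes were outside the rule. On those probes 15 of the 16 rose in WT, 14 in KO and 16 on average, with medians of 0.94, 0.87 and 0.87. Of all genes 12.3%, 10.5% and 17.2% rose in these comparisons.

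**Figure D3:**
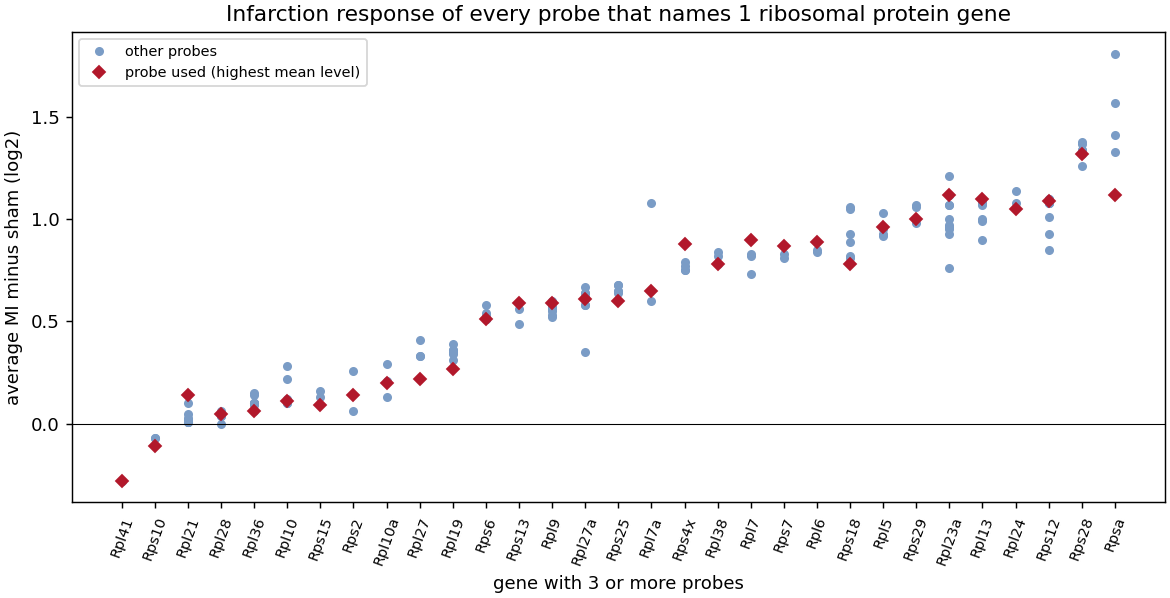
Average MI minus sham difference (log2) of every probe that names 1 ribosomal protein gene, for genes with 3 or more probes, ordered by the median over each gene's probes. Red diamonds mark the probe used, the one of highest mean level, and blue points mark the other probes. Probes of a gene mostly lie close together, with the widest spread in Rpsa, from 1.12 to 1.81.

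The infarction response of the members was close in size in both genotypes, and none was called as different between them. Of the members that rose, 36 rose in both genotypes, which is 90.0% of those in WT and 92.3% of those in KO. The same overlap was not counted for all genes, so it cannot be called particular to the members. Rpl30, Rpl34, Rps13 and Rps15a passed in WT alone, and Rpl4, Rpl8 and Rplp0 in KO alone; the test of the difference of the responses gave adjusted p between 0.487 and 0.928 for these 7. The responses in WT and KO, which share no arrays, had r = 0.89 over the 61 members, a description over genes that share their arrays. The absolute difference had a median of 0.13, and the response was larger in KO for 32 members and in WT for 29. By the interaction term 0 members and 0 of all genes passed (0.0% of all genes), with 1 member (1.64%) and 1637 of all genes (8.21%) at an unadjusted p under 0.05. That member was Rplp0, where the KO response exceeded the WT response by 0.76 (SE 0.22, 95% interval 0.27 to 1.25, unadjusted p = 0.0064, adjusted p = 0.487). The next smallest p-values belonged to Rpl3l at 0.38, Rpl38 at -0.37 (interval -0.79 to 0.05), Rps20 at -0.33 (-0.74 to 0.09), Rplp1 at 0.27 (-0.10 to 0.65) and Rpl12 at -0.35 (-0.84 to 0.14).

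**Figure D4:**
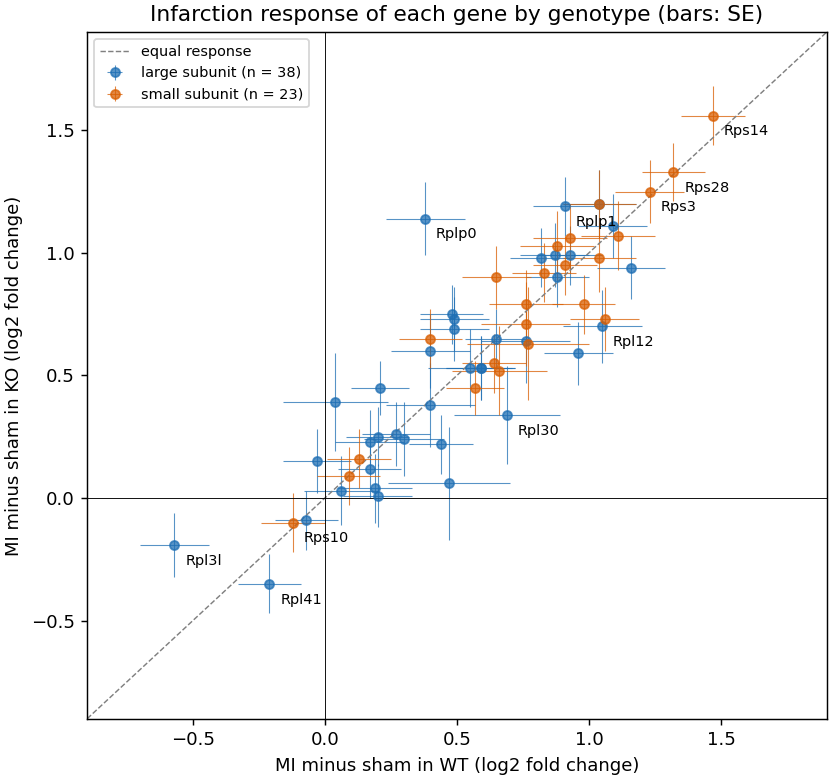
MI minus sham log2 fold change of each of the 61 genes in WT (horizontal) and KO (vertical), with standard errors from the limma fit as bars; blue is the large and orange the small subunit, and the dashed line marks equal responses. Most genes lie near the line above 0, Rplp0 lies above it at 0.38 and 1.14, and Rpl3l lies lowest in WT at -0.57.

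Between genotypes at the same surgery, 0 members passed. For scale, 9781 of all 19938 genes had a KO minus WT difference above 0 in sham hearts, and 10029 in MI hearts. The members share their arrays, so their counts above 0 are a description. In sham hearts 5 members (8.2%; of all genes 5.1%) had an unadjusted p under 0.05, 0 passed after adjustment (of all genes 0.0301% passed, 0.00502% as higher in KO and 0.0251% as lower) and the median KO minus WT difference was 0.08, with 47 of 61 above 0. In MI hearts 4 (6.56%; of all genes 11.7%) had an unadjusted p under 0.05, 0 passed (of all genes 0.0702%, 0.0301% as higher in KO and 0.0401% as lower), and the median difference was 0.11, with 51 above 0, or 0.04 under cyclic loess scaling. The smallest p in sham belonged to Rps20 (0.42, 95% interval 0.12 to 0.71, adjusted p = 0.733), Rpl12 (0.47, 0.12 to 0.81) and Rpl38 (0.32, 0.03 to 0.62) above WT, and to Rpl3l (-0.38, -0.67 to -0.08) and Rplp0 (-0.42, -0.76 to -0.07) below. In MI they belonged to Rplp1 (0.33, 0.07 to 0.60, adjusted p = 0.336), Rps21 (0.36, 0.07 to 0.64) and Rpl23a (0.32, 0.01 to 0.63) above and to Rpl30 (-0.47, -0.91 to -0.02) below. Both KO sham arrays were above both WT sham arrays for 17 members (27.9%; of all genes 16.6%) and below for 3, Rpl3l, Rpl8 and Rplp0 (of all genes 16.1%). Both KO MI arrays were above both WT MI arrays for 30 members (49.2%; of all genes 24.2%) and below for 4, Rpl30, Rpl34, Rpl39l and Rps6 (of all genes 20.2%). WT sham replicate 1 was below replicate 2 for 52 of the 61 members, so the sham difference leans on that array: its median was 0.03 without WT sham replicate 1 and 0.14 without WT sham replicate 2. The intervals leave room for genotype effects in single members of the size of the values just given.

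The ribosomal protein genes are set here beside the other genes of ribosome production and use. For scale, 12.3% of all genes rose and 15.8% fell in WT, and 10.5% rose and 10.3% fell in KO. Among 56 genes of ribosomal RNA processing and assembly measured, 44 rose (78.6%) and 0 fell in WT. In KO 42 rose (75%) and 0 fell, and the medians were 0.81 in WT and 0.79 in KO. Nop58, a core protein of box C/D particles that guide ribosomal RNA methylation, rose 3.74-fold in WT and 3.24-fold in KO, its partner Nop56 3.01-fold and 2.85-fold, and Npm1, the nucleolar chaperone nucleophosmin, 2.73-fold and 2.66-fold. Of 15 genes for RNA polymerase I and its factors, 3 rose in WT (20%) and 5 in KO (33.3%), with medians of 0.13 and 0.26. Of 25 initiation factor genes 10 rose in WT (40%) and 12 in KO (48%), and 0 fell. Among those that rose were Eif1a (3.83-fold in WT and 2.92-fold in KO), Eif5a (2.51-fold and 2.68-fold) and Eif4a1 (2.28-fold and 2.26-fold). Of 16 measured genes for other TOP mRNAs, 7 rose in each genotype (43.8%) and 0 fell, with medians of 0.30 and 0.36. Among them were Pabpc1 (2.01-fold and 2.06-fold) and Eef1b2 (1.52-fold and 1.59-fold). Fau, whose product is cleaved into the ribosomal protein S30, changed by 0.23 in WT (adjusted p = 0.182) and 0.15 in KO (adjusted p = 0.438). Among 19 regulators of ribosome production 4 rose (21.1%) and 6 fell (31.6%) in WT, and 3 rose (15.8%) and 3 fell (15.8%) in KO. Of 11 genes of p53 and ribosome surveillance 2 rose (18.2%) and 1 fell (9.09%) in WT. In KO 1 of the 11 rose (9.09%) and 1 fell (9.09%), shares near those of all genes. Npm1 and Fau stand in more than 1 of these lists. Myc, the transcription factor that drives many of these genes in growing cells, rose 12.6-fold in WT (3.66, SE 0.14) and 6.39-fold in KO (2.67, SE 0.14).

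The ribosome of mitochondria, made of other proteins encoded by other nuclear genes, was read on the same arrays. Of 77 of its genes 3 rose (3.9%; of all genes 12.3%) and 24 fell (31.2%; of all genes 15.8%) in WT, with a median of -0.20. In KO 9 rose (11.7%; of all genes 10.5%) and 6 fell (7.79%; of all genes 10.3%), shares near those of all genes, with a median of 0.04. Relative to the WT sham mean, the average over the 77 was -0.02 and 0.02 in WT sham, -0.20 and -0.05 in KO sham, -0.21 and -0.26 in WT MI and -0.07 and -0.07 in KO MI. The cytosolic members lay at 0.57 to 0.71 in the 4 MI arrays on the same scale. The difference between the cytosolic and mitochondrial sets is given as counts and medians and was not tested.

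**Figure D5:**
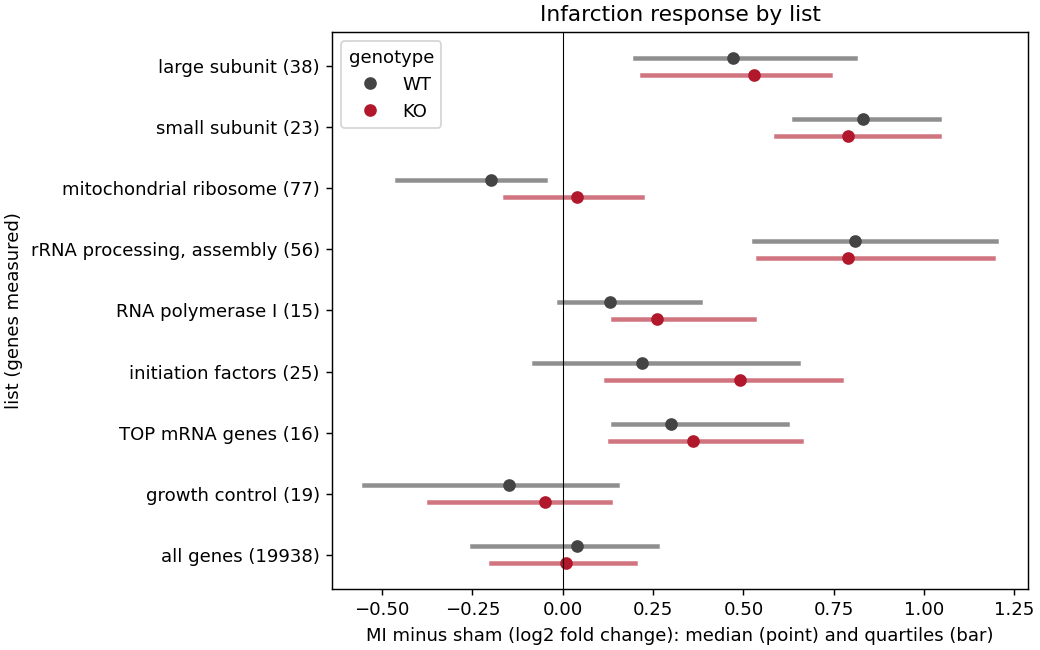
Median (points) and quartiles (bars) of the MI minus sham log2 fold changes of each gene list in WT (grey) and KO (red), with the number of genes measured in brackets. The large and small ribosomal subunits and the processing and assembly genes lie to the right of all 19938 genes, and the mitochondrial ribosome at -0.20 in WT and 0.04 in KO.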

How the data were processed

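The authors deposited 1 log2 expression value per probe and array, made with Affymetrix Expression Console and RMA per the submitters' processing notes. Versions, the genome build and any further steps were not given in the sources used here. RMA as commonly run includes quantile normalization, which would shrink a shift shared by most genes. Among 35556 probes, the platform annotation gave 21789 1 gene and 1621 several, and did not list 12146; Entrez IDs matched 21698 to RefSeq, with 0 symbols updated. Keeping 1 probe per gene left 19938 genes, with no filter on low values.

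limma 3.58.1 (R 4.3.3) fitted 4 group means over 8 arrays (4 residual and 5.57 prior degrees of freedom). Tests were two-sided, with p-values adjusted by Benjamini-Hochberg over the 19938 genes at 0.05. An exact permutation test of 2 arrays against 2 cannot go below p = 0.333, so p-values come from the fit, and the number of arrays limits precision. The code was tested on simulated data. Members, lists and alternatives were chosen with earlier results of these data known. Named genes are the largest called members per contrast (up to 12 each way, or the 3 smallest p each way where 0 passed), tissue-restricted paralogs and their parents, stalk proteins, Rpsa, Rps6, Rpl5, Rps18, members of extreme level or spread, and up to 4 genes per other list by p; further names, such as those called in 1 genotype, were chosen after their values were seen. Alternatives were an intensity trend, array weights, a robust prior, removal of genes below a mean level of 4.59, every probe of a gene or their mean, probes naming several genes, a fit on just the groups compared, median centring, cyclic loess, a replicate block, and each array left out. Leaving out KO sham replicate 1 and WT MI replicate 2 together was chosen after seeing the data. Where 1 array of a group was left, its spread was taken from the rest. Figures were drawn with matplotlib 3.10.9.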

Additional observations from a re-analysis of the deposited data

Results flagged for a closer look

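For 4 members every KO array lay on one side of the WT arrays after sham and on the other side after MI. Among all genes, both KO arrays lay below both WT arrays for 16.1% after sham and above them for 24.2% after MI. The opposite sides held for 16.6% after sham and 20.2% after MI. The share of all genes that switched sides was not counted, so the 4 members cannot be said to exceed it. The difference of the MI responses, KO minus WT on the log2 scale, was 0.76 for Rplp0, 0.24 for Rpl8, -0.22 for Rpl34 and -0.13 for Rps6. Rplp0 was lower in KO than in WT by -0.42 after sham and higher by 0.34 after MI, and Rpl8 changed from -0.10 to 0.13. Rpl34 and Rps6 went the other way, from 0.16 and 0.06 after sham to -0.06 and -0.06 after MI. By the interaction term in limma, the adjusted p was 0.487 for Rplp0, 0.716 for Rpl8, 0.736 for Rpl34 and 0.851 for Rps6, so none of the 4 differences passed the threshold.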

How the results depend on the processing

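The number of members that rose was within 1.5 times the reported number in all 20 alternatives in each genotype and in all 19 for the average, and 0 members passed between genotypes or in the interaction in any of them. Leaving out 1 array gave 29 to 40 rises in WT, 30 to 40 in KO and 41 to 47 on average, against 40, 39 and 45; with probes that name several genes (77 genes) there were 55, 53 and 61. The median MI response moved under cyclic loess to 0.75 in WT and 0.70 on average, with probes that name several genes to 0.69 in KO and 0.70 on average, and without KO sham replicate 1 and WT MI replicate 2 together to 0.71 in KO and 0.68 on average. Over the arrays left out in turn it ran from 0.59 to 0.67 in WT, 0.59 to 0.71 in KO and 0.58 to 0.66 on average. The median KO minus WT difference became 0.13 in sham and 0.04 in MI under cyclic loess, and ran from 0.03 to 0.14 in sham with 1 array left out. The median difference of the responses became -0.11 under cyclic loess and ran from -0.05 to 0.08 with 1 array left out. The cause was not tested.

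Of 88 results on single genes, 72 kept their direction and their side of the threshold throughout. Those that changed direction were not called and lay in KO: Rpl39l (-0.01 under cyclic loess, -0.03 under median centring, -0.11 without KO sham replicate 1, -0.03 without KO MI replicate 2 and -0.11 without the pair), Rpl10l (-0.32 without KO sham replicate 1, -0.12 without KO MI replicate 1 and -0.32 without the pair, with 1 array left out up to 0.43) and Rpl10 (-0.12 without KO sham replicate 2 and -0.02 without KO MI replicate 1, up to 0.20). Rpl7l1 in WT passed under cyclic loess (0.47, adjusted p = 0.0241) and without the pair (0.47, adjusted p = 0.0314). Rplp0 in WT also passed with an intensity trend (adjusted p = 0.0412) and under cyclic loess (0.53, adjusted p = 0.0331). Rpl22 lost its WT call with the 2 compared groups alone (adjusted p = 0.053) and its KO call with array weights (0.0636) and median centring (0.057). Rpl41 was the 1 member that fell in KO with an intensity trend, with the filter on mean level and under median centring.

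Counts over all genes moved by over 1.5 times without WT sham replicate 1 or 2 (3457 and 3462 against 5609 in WT) and without KO MI replicate 1 or 2 (2305 and 2246 against 4142 in KO). Between genotypes they ran from 3 to 34 against 6 in sham, from 2 to 63 against 14 in MI, and from 0 to 4 in the interaction. Rises made up 42.9% of the 14 calls between genotypes in MI and 30.0% of 20 under cyclic loess, but 63.5% of 63 with an intensity trend, 53.8% of 26 with array weights and 52.2% of 23 with the filter on mean level, so the balance depends on the setting.

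Replicate numbers came from the titles, and arrays with the same number correlated in their deviations at -0.19 to 0.16. With 2 arrays per group these values cannot decide whether arrays of the same number share more than a number. With the replicate block 38 members rose in WT, 39 in KO and 44 on average, Rps27l in WT was no longer called (adjusted p = 0.0555), and 5 of all genes passed between genotypes in MI. Precision is limited by 2 arrays per group, and no detection call was used here.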
